A study of Homo sapiens with 8 samples.

Results

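Constitutive distal regions strengthened by TGFβ1 were stretches of open chromatin far from promoters that carried an ATAC-seq peak before treatment and in every TGFβ1 peak list, and whose peaks were stronger after 72 h of TGFβ1. The 4 peak lists were merged wherever peaks shared at least 1 bp, which gave 126658 regions, of which 79275 had a peak in all 4 lists and 47307 of these lay over 3 kb from every GENCODE transcription start site (TSS). For each of them the log2 ratio of the summed area under the curve (AUC, the peak caller's score for a peak) at 72 h over solvent was taken, and the median of the same ratio over the 31968 four-list regions within 3 kb of a TSS, 0.25, was subtracted. The 6538 regions with a centred ratio of 1 or more were the members, 13.8% of the distal four-list regions. The members were thus chosen by the 72 h and solvent values themselves, so their higher AUC at 72 h is a description and was not tested. The remaining 40769 distal four-list regions, called the other distal regions, served for comparison, and 621 of them (1.31%) had a centred ratio of -1 or less and are called weakened.

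Open chromatin was measured by ATAC-seq, which maps nucleosome-free DNA from where a transposase inserts sequencing adaptors, in 8 libraries of wild-type MCF10A cells. MCF10A is an immortal but non-tumorigenic cell line from human breast epithelium. All cells were grown in medium with horse serum, EGF, hydrocortisone, insulin and cholera toxin, and received solvent (BSA in PBS) or 5 ng/ml TGFβ1 for 6, 24 or 72 h, with 2 replicates in each of the 4 conditions. The sample labels place the solvent cells at 0 h, while the study describes solvent for 72 h and one harvest time after plating for every condition, by which account time in culture was the same in all 4. The authors called 1 peak list per condition on both replicates together, so no value below has a replicate error, no p-value is given, and the 95% intervals (Wilson for a share, Newcombe for a difference of shares) cover counting error over regions only, which are not replicates. The solvent list held 86209 peaks, and the TGFβ1 lists held 107656 (6 h), 118433 (24 h) and 116720 (72 h). The study names a common read number per sample, but the depth behind each list after filtering is unknown. The AUC was not scaled between lists, and the centring on promoter-near regions stands in for a scaling.

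TGFβ1 binds a pair of receptor kinases, TGFBR2 and TGFBR1, which phosphorylate SMAD2 and SMAD3. These enter the nucleus with SMAD4 and bind short DNA elements, usually together with other transcription factors. In mammary epithelial cells the pathway is known for driving epithelial-mesenchymal transition (EMT), in which cells lose their junctions and keratins and make matrix proteins, proteases and mesenchymal adhesion molecules. Open chromatin far from promoters often marks enhancers, where factors such as AP-1 (dimers of JUN, FOS and ATF proteins), RUNX, TEAD, C/EBP or p63 bind. CTCF-bound sites, by contrast, serve as boundaries and anchors of chromatin loops.

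The sequences of 9 members are shown because they hold the DNA elements that the comparisons below turn on. Each runs 100 bp to either side of the summit of the strongest 72 h peak and was read from the plus strand of GRCh38. Capitals mark the AP-1 motif (TGACTCA), the SMAD box (CAGACA), the SMAD palindrome (GTCTAGAC), the RUNX motif (TGTGGTT or TGCGGTT) and the TEAD motif (GGAATG), on either strand. The first 5 belonged to the 10 leading members by increase or ratio outside untranslated regions, of which 7 held an AP-1 motif, 6 a SMAD box, 1 a RUNX motif, 1 a TEAD motif and 1 none of these. The next 3 were the members of largest 72 h AUC nearest to a mesenchymal, a junction and an epithelial regulator gene. The last, 1 of 5 members at TGFBI, was picked after its values were seen because it held 4 SMAD boxes, of which 3 overlap in a row.
ZFP36L1, chr14:68786093-68786293: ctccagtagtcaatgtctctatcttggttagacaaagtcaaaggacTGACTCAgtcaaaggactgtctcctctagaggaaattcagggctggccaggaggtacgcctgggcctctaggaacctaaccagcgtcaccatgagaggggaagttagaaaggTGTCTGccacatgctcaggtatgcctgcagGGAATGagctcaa
SMIM21, chr18:75625002-75625202: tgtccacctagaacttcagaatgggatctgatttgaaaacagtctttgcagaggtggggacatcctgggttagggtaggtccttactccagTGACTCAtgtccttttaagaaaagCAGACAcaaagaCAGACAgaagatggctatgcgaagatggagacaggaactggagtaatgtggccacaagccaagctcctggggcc
NAV2, chr11:20126851-20127051: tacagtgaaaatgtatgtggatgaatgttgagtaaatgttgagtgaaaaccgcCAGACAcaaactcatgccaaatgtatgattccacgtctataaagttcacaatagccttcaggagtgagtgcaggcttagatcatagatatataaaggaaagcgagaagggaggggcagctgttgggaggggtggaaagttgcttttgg
GORAB, chr1:170462021-170462221: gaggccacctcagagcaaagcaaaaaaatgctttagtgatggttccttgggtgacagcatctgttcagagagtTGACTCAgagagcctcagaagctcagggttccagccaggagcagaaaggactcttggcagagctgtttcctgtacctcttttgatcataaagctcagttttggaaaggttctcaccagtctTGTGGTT
KCNJ15, chr21:38245010-38245210: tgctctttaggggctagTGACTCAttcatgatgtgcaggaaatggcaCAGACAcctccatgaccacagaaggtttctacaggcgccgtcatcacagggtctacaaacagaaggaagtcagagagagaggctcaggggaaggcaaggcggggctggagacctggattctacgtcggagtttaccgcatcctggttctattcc
CDH2, chr18:29154281-29154481: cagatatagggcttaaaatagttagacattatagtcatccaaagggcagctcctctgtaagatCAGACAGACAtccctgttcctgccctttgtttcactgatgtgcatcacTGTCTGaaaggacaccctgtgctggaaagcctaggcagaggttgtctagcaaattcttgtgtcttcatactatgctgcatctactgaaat
TJP1, chr15:29698395-29698595: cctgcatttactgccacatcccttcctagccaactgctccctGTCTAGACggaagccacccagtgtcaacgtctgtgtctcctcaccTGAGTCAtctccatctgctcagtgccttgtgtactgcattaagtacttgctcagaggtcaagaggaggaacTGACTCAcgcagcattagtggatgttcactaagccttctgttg
TP63, chr3:189572333-189572533: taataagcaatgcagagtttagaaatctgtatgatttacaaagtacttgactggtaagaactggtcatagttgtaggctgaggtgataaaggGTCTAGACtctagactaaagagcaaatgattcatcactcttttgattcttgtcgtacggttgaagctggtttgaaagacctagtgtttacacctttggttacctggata
TGFBI, chr5:135993928-135994128: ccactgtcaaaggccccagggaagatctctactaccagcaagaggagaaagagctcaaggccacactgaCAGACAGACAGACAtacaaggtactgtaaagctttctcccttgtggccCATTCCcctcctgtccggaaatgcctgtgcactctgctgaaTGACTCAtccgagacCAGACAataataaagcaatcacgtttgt

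Members had a lower median AUC than the other distal regions in solvent and a higher one at 72 h. Both lists enter the rule, and dividing by the solvent AUC favours regions that were low there, so these levels are descriptions. In the solvent list the members' median AUC was 345 (quartiles 256 to 502). After 6 h it was 856 (620 to 1244), after 24 h 1109 (819 to 1607) and after 72 h 1180 (861 to 1679). For the other distal regions the medians were 730 before treatment and 1069, 1076 and 1006 over the 3 TGFβ1 lists. The members' median was thus below that of the other distal regions in solvent and at 6 h, and above it at 24 and 72 h. Centred in the same way as the rule, the members' median log2 ratio to solvent was 0.78 (quartiles 0.53 to 1.06) for the 6 h list. For the 24 h list it was 1.19 (0.95 to 1.498), and for the 72 h list 1.355 (1.15 to 1.67). These 3 ratios share the solvent list with the rule and are descriptions. At 6 h, 6424 members (98.3%) had a centred ratio above 0 and 1935 (29.6%) one of 1 or more, where 4.49% of all distal four-list regions had one of 1 or more. At 24 h, 4543 members (69.5%) had a centred ratio of 1 or more, where 10.9% of all distal four-list regions had one.

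The median AUC of members rose more up to 6 h than from 6 to 72 h, but the order of the time points differed among members. The AUC rose at every step from solvent through 6 and 24 h to 72 h in 3512 members (53.7%). The largest AUC was that of the 72 h list in 3878 members (59.3%), of the 24 h list in 2445 (37.4%) and of the 6 h list in 215 (3.29%). Both of these counts compare unscaled AUCs, and promoter-near regions had a median log2 ratio of 72 h over 24 h of -0.12. Centred on that median, the 72 h over 24 h ratio was above 0 in 5235 members (80.1%), though it shares the 72 h list with the rule. A centred ratio of 1 or more was present at all 3 times in 1871 members (28.6%), from 24 h on in 2672 (40.9%) and at 72 h alone in 1931 (29.5%), with 64 members above 1 at 6 and 72 h but not at 24 h. Only 114 members (1.74%) had a centred ratio below 0 at 6 h.

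The ratio of 24 h over 6 h does not enter the ratio of the rule and so could be compared, although every region, member or not, had to have a peak in both of these lists. The centred log2 AUC ratio of 24 h over 6 h had a median of 0.42 in members (quartiles 0.25 to 0.61) and of 0.07 in the other distal regions. It was above 0 in 6126 members, 93.7% (95% CI 93.1 to 94.3), and in 62.1% of the other distal regions (61.6 to 62.6), a difference of 31.6 percentage points (30.8 to 32.3). The difference was present at every strength before treatment, at 24.7 points in the lowest quartile of solvent AUC and 44.8 points in the highest, where 140 of 142 members had a ratio above 0. In the weakened regions the same step had a median of -0.48. From 24 to 72 h the members' centred ratio, which shares the 72 h list with the rule, had a median of 0.18.

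The gain in AUC came with wider peaks and more AUC per base, at summits that hardly moved. AUC is width times AUC per base, both taken here from the solvent and 72 h lists of the rule. A gain in at least 1 of them was thus set by the rule, so their values are descriptions. The median member peak was 250 bp wide in solvent and 463 bp at 72 h, and 99.97% of members were wider at 72 h. The median log2 ratio of width was 0.68 and that of AUC per base 0.98, where the median uncentred log2 AUC ratio was 1.60. In the other distal regions the median log2 ratio of width was 0.11 and that of AUC per base 0.25. The median distance between the solvent and the 72 h summit was 9 bp in members and 8 bp in the other distal regions, and 84.8% of members had both summits within 50 bp. Since part of the gain is width, 1962 distal regions reached a centred ratio of 1 with AUC per base in place of AUC, and 1917 of these were members. With the -log10 p of the summit, a measure of height, 14 regions reached it, all of them members. The members' median -log10 p of the summit was 6.57 in solvent and 9.47 at 72 h. The folds given below are folds of AUC and not of summit height.

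Membership fell steeply with strength before treatment. In the lowest quartile of solvent AUC (200 to 376) 31.4% of the distal four-list regions were members, in the second 16.2%, in the next 6.43% and in the highest (1180 to 11619) 1.201%, or 142 regions. Every list holds only peaks with an AUC of at least 200, so a site that was weaker than this in solvent could not be a member. A weak region that fell below 200 at 72 h was left out of the comparison as well. Weakened regions numbered 11 in the lowest quartile of solvent AUC and 190, 257 and 163 in the next ones. How far this floor set the medians below was not tested. The median centred ratio over regions fell in the same order, from 0.62 to 0.08, and its SD from 0.71 to 0.39. Weak regions thus lay nearer to the threshold and spread more widely around their median. The part of either in membership was not tested. Of the four-list regions near a TSS, 1810 (5.66%) passed the same threshold. The 3 members closest to the threshold had centred ratios of 1.0001 (AUC 613 to 1456, nearest to FAM216B), 1.0002 (525 to 1246, PITPNM2) and 1.0003 (522 to 1240, RPL11), and the 3 closest regions outside had 0.9999 (256 to 608, HSD17B2), 0.9998 (215 to 511, LPAR1) and 0.9998 (391 to 928, PAPOLA).

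LAMB3, the β3 chain of laminin-332 in the epithelial basement membrane, held 2 of the regions with the largest increase of AUC, both in its introns. The region at chr1:209632465-209636889 had AUCs of 1454, 7792, 9530 and 12881 over the solvent, 6, 24 and 72 h lists, 8.86-fold above solvent, and the one at chr1:209638831-209645123 had 2177, 6362, 8289 and 10987. Another intronic member at chr1:209645407-209647833 went from 1715 to 2937, 4141 and 4856. All 3 LAMB3 members, of 4 distal four-list regions nearest to the gene, rose at every step. The largest LAMB3 window held none of the AP-1, SMAD box, RUNX or TEAD motifs.

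Further regions of large increase lay at genes of mixed function. The intergenic region at chr14:68784334-68787599, 3644 bp from ZFP36L1 (an RNA-binding protein of mRNA decay), was the strongest member in solvent and had an AUC of 4884, 9445, 11983 and 13222 over the solvent, 6, 24 and 72 h lists, 2.71-fold at 72 h. At chr18:75624554-75626826, 196851 bp from SMIM21, the AUC was 3174, 8956, 9968 and 9045. The unscaled AUC there was highest at 24 h, with centred ratios of 1.27 at 24 h and 1.26 at 72 h. Near GABRP, a GABA receptor subunit of epithelial cells, the region chr5:170751403-170753562 had 2247, 6861, 8024 and 7982. Near NFATC2, a transcription factor of calcium signalling, chr20:51365673-51367091 had 1960, 6695, 7275 and 7183, and near MESP2, chr15:89781125-89784650 had 2982, 7277, 7561 and 8049. These 7 regions of large increase include both LAMB3 regions. Their unscaled AUC gained more up to 6 h than from 6 to 72 h, except in the second LAMB3 region. In 2 of them the order depended on the scaling. The centred ratio was 0.51 at 6 h and 1.19 at 72 h at ZFP36L1, and 1.10 and 2.09 in the second LAMB3 region. By that measure ZFP36L1 rose more after 6 h and the second LAMB3 region more before it.

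Among members with a solvent AUC of at least 400 large ratios, after LAMB3 at 2.90, stood at NAV2, GPR78, GORAB, KCNJ15, DYNC1I2 and NECTIN3. The NAV2 region at chr11:20125789-20127313 had an AUC of 538 in solvent and of 3980, 4973 and 4569 at 6, 24 and 72 h, a centred log2 ratio of 2.84. KCNJ15, an inwardly rectifying potassium channel, held an intronic member at chr21:38244523-38245552 with 560, 3413, 4197 and 4225, a centred ratio of 2.67. The GORAB region at chr1:170461436-170462584, in an exon of the antisense gene GORAB-AS1, had 547, 2037, 3697 and 4218, a ratio of 2.70. At DYNC1I2 the values were 536, 2769, 4443 and 3999, at GPR78 503, 2305, 3627 and 3928, and at NECTIN3, an adhesion molecule, 505, 2031, 2959 and 3745. In unscaled AUC NAV2 and DYNC1I2 were highest at 24 h, while GPR78, GORAB, KCNJ15 and NECTIN3 rose at every step. The centred ratios at 24 and 72 h hardly differed at NAV2 (2.82 and 2.84) and DYNC1I2 (2.67 and 2.65).

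Members were then counted at the nearest protein-coding TSS, which names a gene by position and does not show that the region acts on it. The 6538 members fell to 3673 of the 10635 genes that had a distal four-list region, 1.78 per gene, and 688 genes had 3 or more. In 12 gene lists on TGFβ1 and EMT, made with earlier results of these data known, the counts differed widely around the 13.8% of all distal four-list regions, whose median centred ratio was 0.27. Matrix proteases and their inhibitors had 25 members among 78 regions (32.1%, median centred ratio 0.56), extracellular matrix and matricellular genes 61 of 238 (25.6%, 0.54), mesenchymal adhesion and filament genes 22 of 103 (21.4%, 0.53), and EMT transcription factors 45 of 230 (19.6%, 0.44). Genes of AP-1 subunits had 13 of 82 (15.9%, 0.14), the actin cytoskeleton 12 of 92 (13.0%, 0.26), TGFβ ligands, receptors and SMAD feedback 25 of 195 (12.8%, 0.33), YAP, TAZ and TEAD with their targets 12 of 103 (11.7%, 0.16), and integrins and focal adhesion 13 of 125 (10.4%, 0.33). Epithelial regulators had 18 of 200 (9%, 0.11), epithelial junction genes 5 of 118 (4.24%, 0.21) and keratins 1 of 33 (3.03%, -0.04). Weakened regions, 1.31% of all distal four-list regions, numbered 7 of 82 at AP-1 subunits and 7 of 200 at epithelial regulators. They numbered 4 of 195 at TGFβ ligands, receptors and SMAD feedback, 4 of 103 at YAP, TAZ and TEAD, and at most 1 in any other list. Regions of 1 gene are not independent of each other, so these shares describe the lists and none was tested. With the nearest TSS of any gene in place of a protein-coding one, 97 in place of 252 members fell to listed genes, and several shares moved. Matrix proteases (19 of 49) and matrix genes (25 of 115) then had 38.8% and 21.7%, AP-1 subunits (7 of 32) 21.9%, mesenchymal adhesion (4 of 24) 16.7% with an interval of 6.68 to 35.9% that includes 13.8%, and YAP, TAZ and TEAD (1 of 47) 2.13%.

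In the signalling genes of the pathway itself the members lay at a few genes. TGFB2, which encodes a second TGFβ ligand, had 5 members among 29 regions, all in an unbroken run within 19.9 kb, chr1:218479803-218499744, in introns of the non-coding gene LINC02869. The strongest of them had an AUC of 1827 in solvent and of 4250, 5026 and 5251 at 6, 24 and 72 h. The same gene also had 3 weakened regions, the lowest with a centred ratio of -1.43, so the distal sites at TGFB2 moved in both directions. LTBP1, which tethers latent TGFβ to the matrix, had 5 members of 18, and PMEPA1, a feedback inhibitor of the receptors, had 4 of 11. All 4 members at PMEPA1 held an AP-1 motif, and their summed AUC was 1753, 4733, 6355 and 6130 over the 4 lists. TGFBR2 had 3 of 19 (15.8%) and SMAD3 3 of 16 (18.75%), near the 13.8% of all distal four-list regions. At SMAD3 the members' summed AUC was 924 in solvent and 2766, 3386 and 2952 at 6, 24 and 72 h. By gene the AP-1 motif share of members varied around the 48.2% of all members. At ADAM12 2 of 8 members held the motif, at RUNX1 3 of 12, at ITGB6 1 of 5 and at F3 0 of 3.

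Matrix genes carried members with some of the steepest gains. TGFBI, a secreted matrix protein named for its induction by TGFβ, had 5 members among 11 regions. All 5 held an AP-1 motif, where 48.2% of all members did. The member at chr5:136070563-136072423 went from an AUC of 221 in solvent to 1061, 2437 and 2918, 13.2-fold, and the one whose 4 SMAD boxes are shown above, chr5:135993258-135994410, from 907 to 3948, 4370 and 4079. In unscaled AUC the first rose at every step and the second was highest at 24 h. SPOCK1, a proteoglycan, had 6 of 30, all within the gene and up to 7.999-fold. FBN1 (fibrillin-1) had 5 of 12, of which none held an AP-1 motif or a SMAD box and 1 held the SMAD palindrome. THBS1 (thrombospondin-1) had 5 of 14 and COL5A2 4 of 11, while TNC (tenascin-C) had 6 of 24, of which none was raised more than 3.99-fold. FBN2 and COL12A1 had 3 each.

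ADAM12, a transmembrane metalloprotease, had the largest share among listed genes with more than 4 regions. All 8 of its members, among 11 regions, lay in its introns over 328 kb, and their summed AUC over the 4 lists was 4156, 9801, 12218 and 12285. The gains ranged from 2.42- to 6.37-fold, and the 3 regions that were no members had centred ratios of 0.03 to 0.97. MMP13 (collagenase 3) had 3 of 4. Of its members, that in an intron was highest at 24 h (AUC 420, 1373, 1523 and 1027), whereas an intergenic one at chr11:102974485-102975253 changed most after 24 h (484, 776, 735 and 1297).

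N-cadherin (CDH2) and cadherin-11 (CDH11), adhesion molecules of mesenchymal cells, had 7 of 23 and 6 of 15 members, and CDH2 also had 1 weakened region, with a centred ratio of -1.11. The strongest CDH2 member, chr18:29154022-29155609, had an AUC of 1942, 6102, 6437 and 5809 and held 3 SMAD boxes, but lay 976076 bp from the CDH2 TSS. Within CDH2 the intronic region chr18:28114997-28115590 went from 347 to 961, 1792 and 2198. The steepest CDH11 member, chr16:64657423-64658110, went from 226 to 1594, 2365 and 2078, 9.19-fold, and all 6 lay over 100 kb from the TSS. NCAM1 had 4 of 23 (17.4%).

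Among EMT transcription factor genes RUNX1, a Runt-domain factor, had the most, 12 members of 42 regions, all within the long RUNX1 locus. The strongest, chr21:35190073-35190778, had an AUC of 686, 2282, 2005 and 1997, and the summed AUC of all 12 was 4861, 13377, 15539 and 15554. SOX9 had 6 of 41 (14.6%), SOX4 4 of 12 (33.3%), and HMGA2, TCF4 and ZEB2 3 each of 17, 11 and 27 (17.6%, 27.3% and 11.1%). The shares at SOX9 and ZEB2 were thus near or below the 13.8% of all distal four-list regions. At HMGA2, an architectural chromatin protein, the values ran from 1807 to 4452, 4691 and 4628 at chr12:65695076-65696030, which held 2 SMAD boxes, and from 233 to 1536, 1830 and 2306 at chr12:65634598-65635513, 9.90-fold. JUN had 4 of 16 (25%) and 1 weakened region, and TEAD1 4 of 29 (13.8%, as over all regions) and 2 weakened. F3 (tissue factor) had 3 of 10, whose summed AUC rose from 1540 to 4988, 5769 and 9209, with most of the later gain between 24 and 72 h.

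Epithelial genes had few members, but some of these were steep. At TP63, which encodes the basal epithelial regulator p63, the intergenic region chr3:189572088-189572799, 58590 bp from the TSS, had an AUC of 222 in solvent and of 2482, 3175 and 3086 at 6, 24 and 72 h. This 13.9-fold rise in AUC was among the largest of all members, whose centred ratios reached 3.57. GATA3, KLF5 and TFAP2A had 3 members each of 21, 30 and 29 regions (14.3%, 10% and 10.3%), with 1 weakened region each at KLF5 and TFAP2A. TJP1 (the junction protein ZO-1) had 3 of 19 (15.8%), the strongest with an AUC of 716, 2002, 2715 and 2377. KRT5 had the only keratin member, from 302 to 785 at 72 h. LAMB3, counted with the matrix genes, is itself an epithelial gene.

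Of the genes of adhesion, the cytoskeleton and AP-1, a few had members of note. PTK2, the focal adhesion kinase FAK, had 3 members of 18 (16.7%), all with an AP-1 motif, where 48.2% of all members held one. The strongest PTK2 member, chr8:141017722-141019363, had an AUC of 557, 1761, 1814 and 2649 over the 4 lists. ITGB6, an epithelial integrin subunit that takes part in activating latent TGFβ, had 5 of 17, with a summed AUC of 2192, 5325, 6017 and 6082. TPM1 (tropomyosin) had 1 of 8, at chr15:62940412-62941486 and 101134 bp from the TSS, with 1724, 3773, 4500 and 4294, 2 SMAD boxes and an AP-1 motif. PALLD (palladin), an actin-binding protein, had 6 of 19, all within the gene. The strongest region counted at BATF3, an AP-1 family member, lay in an exon of the neighbouring gene NSL1, chr1:212726962-212728211, with 992, 3198, 4264 and 4333. The PTK2 region rose by 6 h and again after 24 h, while TPM1 and ITGB6 gained most by 6 h.

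The genes with the most members overall were CNTNAP5, NRG1, RUNX1 and ZNF608 with 12 each, PAPPA, TENM2 and TENM4 with 11, JAG1 with 10, and GPC5 and HAS2 with 9, a number that 3 further genes shared. NRG1 encodes a ligand of ErbB receptors, JAG1 a Notch ligand, PAPPA a protease that frees insulin-like growth factors, and HAS2 the synthase of hyaluronan. These genes have many distal regions, so their shares (16.7% at TENM4 to 38.7% at CNTNAP5) say more than the counts. At CNTNAP5, a neuronal cell adhesion gene, 8 of the 12 members lay within the gene and the summed AUC was 5005, 12359, 17245 and 18694. At JAG1 all 10 lay outside the gene, over 57 kb from its TSS, with 5437, 15708, 18456 and 19537. The largest shares among genes with 5 or more distal regions were 5 of 6 at UFM1, 4 of 5 at TMC3 and UBE4B, 8 of 11 at ADAM12 and 5 of 7 at ACOXL, ANXA5 and COL27A1. No gene with 5 or more distal regions had only members.

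The sequence was not used by the rule, and 20 motifs were searched within 100 bp of the 72 h summit of each distal four-list region. The AP-1 motif was present in 3149 members, 48.2% (95% CI 47.0 to 49.4), and in 37.4% of the other distal regions, a difference of 10.8 points (9.51 to 12.1), against 38.8% of all distal four-list regions and 10.3% of the weakened ones. This difference depended on strength. In the lowest quartile of solvent AUC it was 18.3 points (48.3% against 29.9%), in the highest it turned to -1.71 points (40.8% against 42.6%, 95% CI -9.51 to 6.56). By quartile of 72 h AUC it went from 20.4 points to -0.33. The share among members moved little (40.8 to 49.5% over the quartiles of solvent AUC), while that of the other distal regions climbed with their strength. Across bins of the centred ratio the AP-1 share climbed from 10.3% at -1 or less to 46.9% at 0.5 to 1, and was 48.2%, 49.7% and 44.3% at 1 to 1.5, 1.5 to 2 and 2 or more. Copies were no closer to the summit in members, with a median distance of 27 bp against 28 bp.

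The SMAD box showed the opposite dependence on strength. It was present in 1694 members, 25.9%, and in 17.9% of the other distal regions, a difference of 8.04 points (6.92 to 9.17), against 19.0% of all distal four-list regions and 15.5% of the weakened ones. The difference was 8.10 points in the lowest quartile of solvent AUC, 8.67 and 15.4 points in the next 2, and 24.0 points in the highest, where 44.4% of the members and 20.4% of the others held the motif. By quartile of 72 h AUC it was 3.06 points in the lowest, with an interval of -0.60 to 7.33 that includes 0, then 5.601 and 6.62 points, and 14.1 points in the highest. Its share also climbed with the ratio, from 24.4% at 1 to 1.5 to 26.1% at 1.5 to 2 and 33.9% (30.6 to 37.5) at 2 or more. At least 2 copies were present in 4.25% of members and 2.04% of the other distal regions. The difference was about equal in regions with an AP-1 motif (7.62 points) and without (8.51 points).

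The SMAD palindrome, which contains no SMAD box, was rare but 3.25 times as frequent in members. It was present in 38 members (0.581%) and in 0.179% of the other distal regions, a difference of 0.40 points (0.24 to 0.62), against 0.235% of all distal four-list regions. Those 38 included the steepest region at TP63, the intronic region chr3:8560340-8561050 at LMCD1 (AUC 272, 1712, 2961 and 3376, 12.4-fold, with 3 SMAD boxes as well) and the intronic region chr5:119287390-119288437 at TNFAIP8 (299, 2099, 2628 and 3017, 10.1-fold). These last regions were named after their values were seen, as the members with this motif that rose most. The palindrome also stands in the TJP1 sequence above. In the highest quartile of GC content the difference was -0.0184 points, so it was not seen in every base composition.

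RUNX and TEAD motifs were also more frequent in members. The RUNX motif was present in 11.4% of members and 7.31% of the other distal regions (4.07 points, 3.28 to 4.90; 7.88% of all distal four-list regions), and the TEAD motif in 21.2% and 16.4% (4.86 points, 3.82 to 5.93; 17.0% of all). Both had intervals above 0 within each quartile of GC content. By strength, the RUNX difference was 0.20 points (-1.80 to 3.06) in the lowest quartile of 72 h AUC and 3.04 points (-1.36 to 9.42) in the highest of solvent AUC, while the intervals for TEAD lay above 0 in every quartile of both. The RUNX share climbed from 4.67% at a centred ratio of -1 or less to 13.4% at 2 or more. Its difference was larger in regions without an AP-1 motif (6.01 points) than with one (2.31 points), and the same held for TEAD (6.61 and 3.41 points). Together, 75.2% of members and 60.8% of the other distal regions held at least 1 of the AP-1, SMAD box, RUNX and TEAD motifs.

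Other motifs were less frequent in members. The E-box bound by SNAIL and ZEB (CACCTG) was present in 12.6% of members and 20.0% of the other distal regions (-7.40 points, -8.27 to -6.49), against 18.9% of all distal four-list regions and 28.8% of the weakened ones. This E-box lies within some CTCF motifs, and in regions without a CTCF motif the difference was -6.68 points. It also varied with base composition. By quartile of GC content the E-box difference was -2.12 points (-3.36 to -0.77) in the most AT-rich and -10.5 points (-13.1 to -7.67) in the most GC-rich. The CTCF motif was present in 24 members (0.367%) and in 4.54% of the other distal regions (-4.17 points), but also in only 1 of the 621 weakened regions (0.161%), so it was rare at both ends of the change and most frequent (6.17%) at centred ratios of -0.5 to 0. The C/EBP motif stood in 1.79% of members, 4.20% of the others and 10.3% of the weakened regions. The KLF motif stood in 1.82%, 3.52% and 7.89%, and the NFI element (TTGGCA) in 15.6%, 17.4% and 23.3%. These last differences were less stable. For NFI the interval included 0 in 3 of the 4 quartiles of solvent AUC (-0.48 and -0.35 points in the lowest 2) and in 2 of the 4 of GC content, and for KLF in the highest quartile of solvent AUC and in the 2 most GC-rich. Of all distal four-list regions 3.87% held the C/EBP motif (TTGTGCAA, TTGCGCAA, TTATGCAA or TTACGCAA), 3.28% the KLF motif (GGGTGTGGC, GGGTGGGGC, GGGCGTGGC or GGGCGGGGC), 17.2% the NFI element and 3.96% the CTCF motif. For a second E-box (CAGCTG) and the motifs of FOX, STAT, GRHL and SRF the 95% interval of the difference included 0. For those of ETS, CRE, NF-kB, p53 and p63, and the glucocorticoid receptor, it did not, but the interval at a Bonferroni level over 20 motifs did. These motifs stood in 14.5% (second E-box), 3.95% (FOX, TGTTTAC), 6.42% (STAT, TTCNNNGAA), 0.0528% (GRHL, AACCGGTT), 1.09% (SRF), 3.20% (ETS, ACAGGAAG or ACCGGAAG), 0.338% (CRE, TGACGTCA), 4.79% (NF-kB), 8.70% (p53 and p63) and 7.89% (glucocorticoid receptor, ACANNNTGT) of all distal four-list regions. A match is a run of letters in the window and does not show that a factor was bound there.

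Counting all 8192 words of 7 bases (a word and its reverse complement together) put the same elements first. The largest differences were those of TGACTCA (10.8 points) and of its variants TGACTAA (13.2% against 8.29%) and TGAATCA (16.2% against 11.3%), followed among words that share no part of it by AACCACA, the reverse complement of a RUNX motif (10.4% against 6.43%), and CCAGACA, which holds a SMAD box (8.84% against 4.98%). At the other end stood AGAGGGC (3.24% against 7.56%) and CACCTGC (2.49% against 6.29%).

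Members with different timing differed in the SMAD box and in some other motifs. When members were split evenly in 3 by their 24 h over 6 h ratio, which the rule did not use, the median centred ratios were 0.17, 0.42 and 0.69. The SMAD box was present in 27.6% of the members that changed least after 6 h and in 22.4% of those that rose most, a difference of -5.20 points (-7.76 to -2.63). For TEAD the shares were 19.7% and 23.2% (3.48 points, 1.04 to 5.91). For AP-1 (47.3% and 48.0%) and RUNX (10.5% and 11.5%) the interval of the difference included 0, from -2.25 to 3.67 and from -0.81 to 2.91 points. For the second E-box the difference was 3.48 points (1.45 to 5.51) and for NF-kB 1.37 points (0.20 to 2.56). For the NFI element it was -2.67 points (-4.83 to -0.51) and for FOX -1.56 points (-2.71 to -0.43). These intervals were not adjusted for the 20 motifs. The members that rose most after 6 h also had the lowest median solvent AUC, 304 against 366.

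Members lay further from TSSs and in more AT-rich DNA than the other distal regions. Their median GC content in this window was 45.3% against 47.8%, and 20.7% of members had no CG dinucleotide there, against 14.2%. The median distance to the nearest TSS was 17365 bp in members and 13770 bp in the other distal regions, and to the nearest protein-coding TSS 40891 and 27114 bp. Of the members 29.2% lay over 100 kb from every protein-coding TSS, against 20.8% of the others (8.43 points, 7.27 to 9.61). The summit lay within an annotated gene in 61.0% of members and 61.2% of the others, a difference of -0.23 points (-1.51 to 1.04), and in an exon in 2.92% and 3.75%. Because GC content moved with membership, the motif differences were also taken within quartiles of GC content, where that of AP-1 ran from 2.60 points in the most AT-rich to 19.9 points in the most GC-rich, and that of the SMAD box from 7.19 to 10.5 points.

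Members were found on all 23 chromosomes and only loosely grouped. By chromosome their share of the distal four-list regions ran from 7.05% on chromosome 19 to 16.8% on chromosome 8. When a distal four-list region had a neighbour within 10 kb, that neighbour was a member for 19.7% of members and 11.2% of the others. In all, 2156 members stood in 951 runs of at least 2 members with no other distal four-list region between them, and the longest run held 6, at C8orf34, CPA6 and PREX2. Runs of 4 included those at GRB10 (chr7:50818195-50833179) and at HAS2 (chr8:121322938-121356495). A region that had no solvent peak but a peak in every TGFβ1 list lay within 10 kb of 24.3% of members and 20.7% of the other distal regions (3.60 points, 2.51 to 4.73), and a region with a solvent peak and none at 72 h within 10 kb of 2.81% and 4.86% (-2.04 points, -2.48 to -1.57).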

How the data were processed

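The authors trimmed the reads, aligned them to GRCh38 and passed both replicates of a condition to Genrich (ATAC mode), which returned 1 peak list. The submitters' processing notes name Trimmomatic 0.38, Bowtie2 2.4.5, SAMtools 1.4.1, Picard and Genrich 0.5. The deposited lists give each peak's position, its AUC, a signal that grows with height and width, and the -log10 p of its summit, and hold peaks with an AUC of at least 200. The lists are not scaled to each other, and the depth after filtering is unknown.

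Peaks of the 4 lists were merged where they shared at least 1 bp, and AUC was summed per region and list. Log2 ratios were centred on the median of four-list regions within 3 kb of a GENCODE 44 TSS. Either strand was searched for motifs within 100 bp of the summit of the strongest 72 h peak. The report names the 8 members with the largest increase of AUC, the 8 with the largest centred ratio at a solvent AUC of at least 400, the member of largest 72 h AUC of each of 12 gene lists, the 10 genes with the most members, the 5 with the largest share, and listed genes with at least 3 members. Some items this rule names are not reported here. Genes, lists and members were chosen with earlier results of these data known. Samples were grouped by their labels, and columns of per-sample values not used numbered 0. Shares have 95% Wilson intervals and differences Newcombe intervals. The scripts (Python 3.11.15, numpy 2.4.6, pandas 2.3.3, scipy 1.17.1, pysam 0.24.0, matplotlib 3.10.9) were tested on simulated data. Alternatives varied the centring, the measure of strength, the distance to a TSS, the threshold and the strata. Expression was not analysed here.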

Additional observations from a re-analysis of the deposited data

How the results depend on the processing

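No paired analysis was possible because each list pools both replicates of a condition, and no replicate could be left out for the same reason. The number of members, 6538, was 1962 with AUC per base, 14 with the -log10 p of the summit, 2690 among regions with an AUC of at least 400 in every list and 2384 at a threshold of 1.5. It stayed within 1.5 times under the other 7 alternatives, from 4618 to 8035, with 4653 when centred in bins of equal level, of which 4638 were members of the original set. Members at listed genes numbered 97 in place of 252 with the nearest TSS of any gene. The AP-1 difference of 10.8 points kept its direction and an interval above 0 under 23 of 26 alternatives. With AUC per base it was 5.26 points (3.03 to 7.51). Among regions with an AUC of at least 400 in every list it was 8.02 points (6.06 to 9.99). With the -log10 p it was 4.01 points, with an interval that includes 0. It turned to -1.71 points in the highest quartile of solvent AUC and -0.33 in that of 72 h AUC. The 24 h over 6 h difference kept its direction and its interval above 0 under all 15 alternatives, from 24.7 to 44.8 points, and that of the SMAD box under the 12 alternatives of window, centring, solvent AUC and GC content, from 7.19 to 24.0, but not in the lowest quartile of 72 h AUC (3.06, interval -0.60 to 7.33).

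Among rarer motifs the difference changed sign for CRE (0.0908 points in the second quartile of solvent AUC, 0.114 in the third of GC content), ETS (-0.212 in the first of GC content), NF-kB (1.48 in the third of solvent AUC, and 0.732, 0.347 and 1.404 in the first, second and highest of GC content), the SMAD palindrome (-0.0184 in the highest of GC content), the glucocorticoid receptor (-0.925 and -3.13 in the third and the highest of solvent AUC, -0.948 and -0.102 in the first and second of GC content) and p53 and p63 (0.0947 over the whole region). The cause was not tested. The strata of GC content and of 72 h AUC, those of solvent AUC for the 24 h over 6 h ratio, the groups by timing, the regions without CTCF and the 7-base words were chosen after seeing the data.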
